A study of Danio rerio with 21 samples.

Results

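The comparison concerned macrophage-tagged nuclei from cryoinjured zebrafish hearts at 14 days post injury (dpi) and at 5 dpi, set directly against each other without the sham-operated hearts in between. Its members were the libraries labelled as cryoinjury at those days, which are 5 of the 21 libraries of the series: 3 at 14 dpi (replicates 1, 2 and 3) and 2 at 5 dpi (replicates 1 and 4). All fish were adults of the ox133 strain, which carries TgBAC(mpeg1:BirA-Citrine) together with bactin:Avi-Cerulean-Rangap, and in which an mpeg1 BAC drives a biotin ligase and a beta-actin promoter drives an Avi-tagged protein of the nuclear envelope, so that nuclei of mpeg1-expressing cells become biotinylated and can be pulled down with streptavidin beads. The same strain was used for sham hearts, in which the ventricle was exposed but not injured, and 4 sham libraries at 14 dpi, 2 sham libraries at 5 dpi and 2 cryoinjury libraries at 1 dpi are given beside some results. Per the study's methods each library came from 1 heart, so the replicates are separate animals. The title of 14 dpi cryoinjury replicate 1 also carries the word merged. So do those of 5 dpi sham replicate 2 and 14 dpi sham round 1 replicate 3. What was merged is not stated in the labels. All 3 cryoinjury libraries at 14 dpi carry the label of a second round and the 5 dpi labels name no round, so that the day and the round cannot be told apart.

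Cryoinjury kills part of the ventricle wall by freezing and leaves a scar that zebrafish, unlike adult mammals, later resolve while new muscle grows in. Macrophages enter such a wound early, clear dead cells and debris, release cytokines and growth factors, and can either lay down or degrade extracellular matrix. In a regenerating zebrafish heart, an inflammatory phase of the first days gives way to a phase of matrix remodelling, regrowth of muscle and nerve, and scar regression.

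The libraries held 28673602, 32201583 and 34986363 counts at 14 dpi and 13014699 and 18949102 counts at 5 dpi. Levels are given as TMM-normalised CPM (counts scaled to library size), listed in the order of the replicates above and not corrected for transcript length. Genes in capitals carry the name of a human counterpart, and an Ensembl identifier follows where several zebrafish genes share a name. The labelled cell type was checked against its markers. MPEG1 (ENSDARG00000055290), the gene whose BAC drives the ligase, was at 18.7, 3.01 and 4.86 CPM at 14 dpi and at 0 and 24.4 CPM at 5 dpi. The 33 gene entries of the macrophage identity list summed to 496, 290 and 377 CPM at 14 dpi and to 226 and 840 CPM at 5 dpi, and 3 of them, tyrobp and mafbb included, had no count in any of the 5 libraries. Genes of the cardiomyocyte list summed to 201670, 187347 and 140208 CPM at 14 dpi and to 134755 and 100668 CPM at 5 dpi. Levels of different genes are not comparable without length, so these sums say only that cardiomyocyte transcripts made up a large part of every library; their part in the results was not tested. These bulk values cannot tell fewer nuclei of a type from less RNA per nucleus.

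The 2 libraries at 5 dpi differed from each other more than any pair at 14 dpi. Pearson's r of log2(CPM + 1) across genes was 0.795 between them, against 0.871 to 0.920 among the 14 dpi libraries and 0.789 to 0.887 between days. Replicate 1 at 5 dpi held counts above the floor of 3 for 36 of the 38 fast skeletal muscle entries, against 18 in replicate 4 and 14 to 30 at 14 dpi. Replicate 4 was instead the library with the highest macrophage marker sum. Without replicate 4 the median log2 fold change of all genes moved to 1.22, against 0.10 with all 5 libraries. Medians of several lists moved with the choice of 5 dpi library, and are given below without each of the 2.

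CPM at 14 dpi were higher than at 5 dpi for the respiratory chain, ribosomal proteins, the mitochondrial genome and several sarcomere genes. CPM are shares of a library of pulled-down nuclei, not amounts per heart. In sham hearts many genes of the respiratory, ribosomal and mitochondrial groups had the same day order, as given below. After cryoinjury, CPM at 5 dpi were higher for the metalloproteinase adam8a, the inhibitor TIMP2 (ENSDARG00000075261), the growth factor hbegfb and the natriuretic peptide genes nppa and nppb. None of these differences passed the test across all genes. Of 15542 genes tested with edgeR's quasi-likelihood method, 0 were called higher and 0 lower at a Benjamini-Hochberg adjusted p under 0.05 (0% in either direction), and the smallest adjusted p was 0.380. At an unadjusted p under 0.05 there were 595 genes higher (3.83%) and 423 lower (2.72%). DESeq2, run as an alternative on the same libraries, called 332 genes higher (1.97%) and 196 lower (1.16%). Libraries of the 2 days did not overlap for 2385 genes that were higher at 14 dpi (15.3%) and for 1539 that were lower (9.9%). A positive fold change was estimated for 53% of genes, with a median of 0.10 on the log2 scale, which became -0.01 under DESeq2's size factors. Fold changes below are 14 dpi over 5 dpi, SE is the standard error of the log2 value, and every gene named that was tested had an adjusted p between 0.380 and 1 with edgeR's quasi-likelihood test, so each is a measured difference that was not called.

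**Figure D1:**
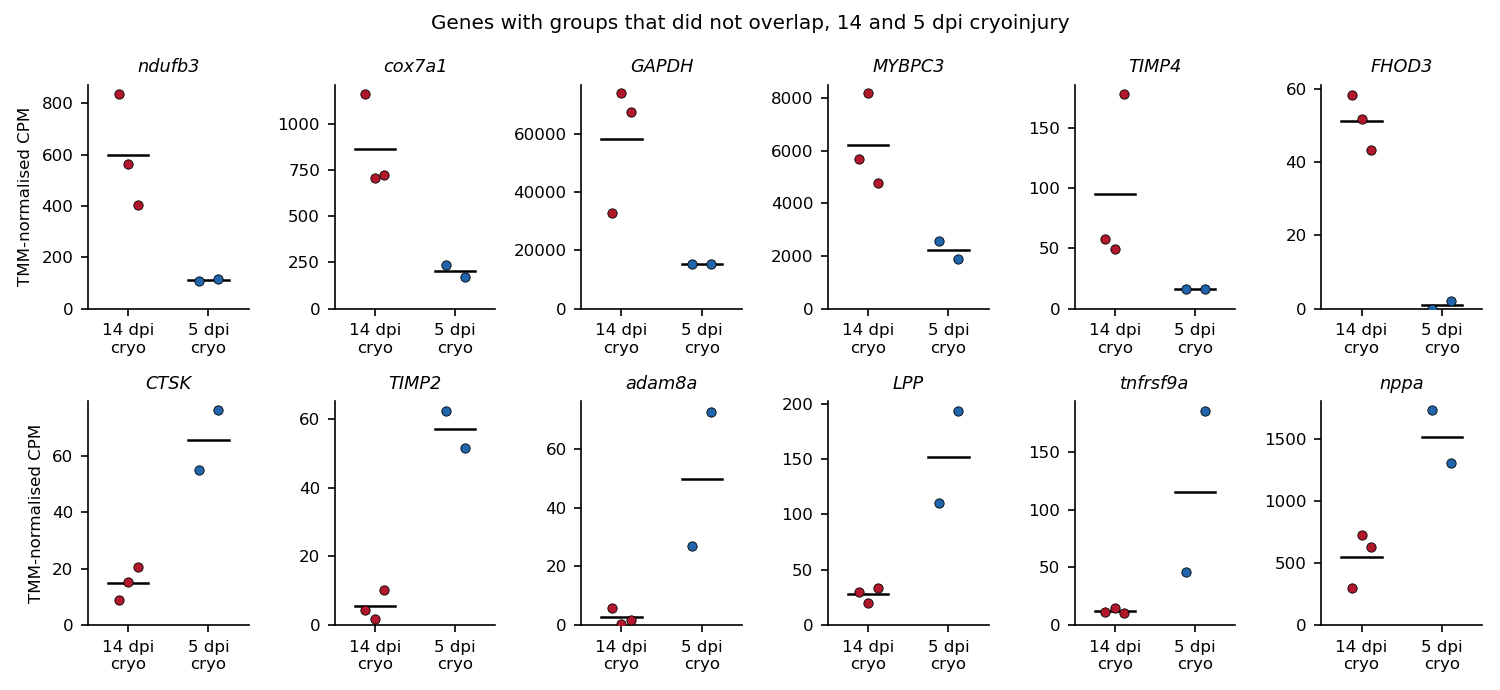
TMM-normalised CPM (vertical axes, from 0) of 12 genes in the 14 dpi (red) and 5 dpi (blue) cryoinjury libraries, 1 point per heart with the group mean as a bar. The upper row holds 6 genes with all 14 dpi libraries above both 5 dpi libraries, such as FHOD3 at 43.3 to 58.4 CPM against 0 and 2 CPM, and the lower row 6 genes with the opposite order, such as TIMP2 at 1.82 to 10.3 CPM against 51.6 and 62.2 CPM.

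The smallest adjusted p, 0.380 in edgeR's quasi-likelihood test, belonged to actc1c, one of 3 zebrafish genes that encode nearly the same alpha-cardiac actin, the thin filament protein of heart muscle. It was at 12429, 10436 and 22883 CPM at 14 dpi and at 183 and 737 CPM at 5 dpi. The mean was 33.2-fold higher at 14 dpi, with a log2 fold change of 5.03 (SE 0.72), and DESeq2 called it. The other copies were chosen after their values were seen. The second, actc1a, was at 12512, 10873 and 1697 CPM at 14 dpi and 22081 and 9237 CPM at 5 dpi. The library highest in actc1c at 14 dpi was the one lowest in actc1a. The third gene, actc1b, was at 0.39, 0.18 and 22.1 CPM at 14 dpi and at 3875 and 3.40 CPM at 5 dpi, so that only replicate 1 at 5 dpi held much of it. Summed over the 3 genes, the level was 24941, 21309 and 24602 CPM at 14 dpi and 26139 and 9978 CPM at 5 dpi. The libraries of the 2 days overlapped. The sum of 5 dpi replicate 1 includes its 3875 CPM of actc1b. That library also held 36 of the 38 fast skeletal muscle entries above the floor. Whether its actc1b came from heart muscle was not tested. Reads of such similar copies can be assigned to one or another, and how they were divided was not tested, so the difference in actc1c is uncertain as a difference in actin.

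**Figure D2:**
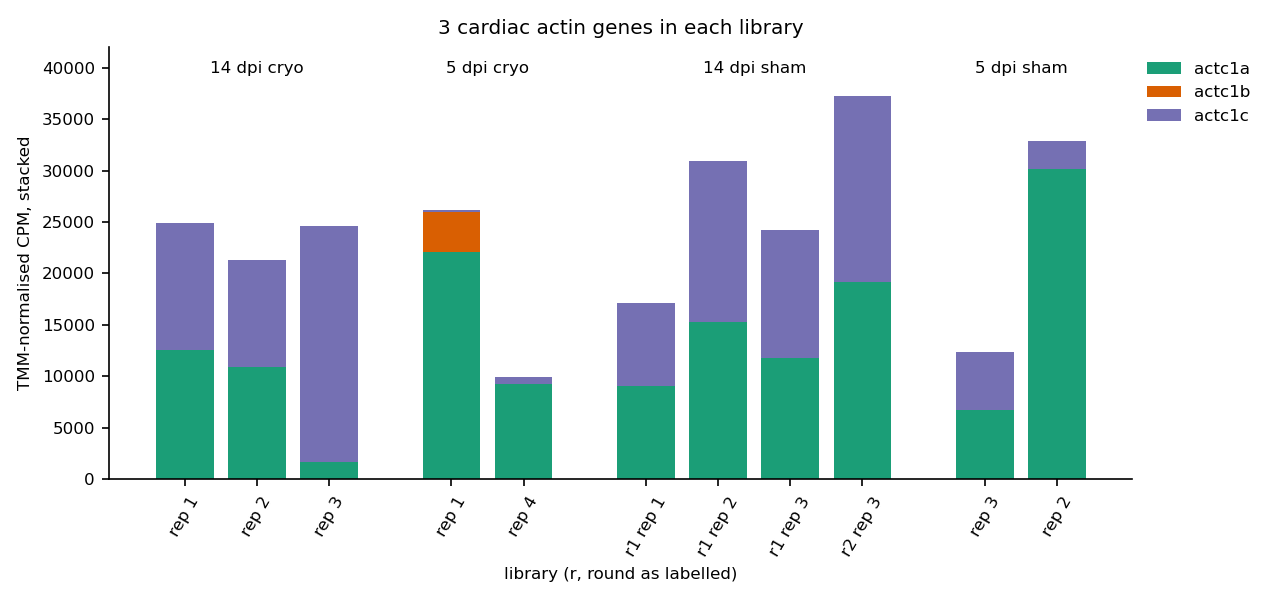
TMM-normalised CPM of actc1a, actc1b and actc1c, stacked (vertical axis, from 0), in each cryoinjury and sham library at 14 and 5 dpi. The share held by actc1c was small in both 5 dpi cryoinjury libraries. The whole bar of 5 dpi replicate 1, at 26139 CPM with 3875 CPM of actc1b in it, stood above those of all 3 14 dpi cryoinjury libraries.

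Nuclear genes of the respiratory chain and of ATP synthase, which make ATP from the oxidation of fuels in mitochondria, had higher values at 14 dpi in nearly all members. This list was drawn up after the data had been seen. Of its 94 tested members, 92 had a positive fold change (53% of all genes did) and 73 were higher at 14 dpi without overlap (15.3% of all genes), with a median log2 fold change of 1.14 against 0.10 for all genes. The members together summed to 87273, 58994 and 56126 CPM at 14 dpi and to 34031 and 24490 CPM at 5 dpi. Every 14 dpi library was above both 5 dpi libraries. The cardiomyocyte sums given above had the same order.

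By complex, the median was highest in complex IV and lowest in complex II. Among all genes, 15.3% were higher and 9.9% lower without overlap. In complex I, which takes electrons from NADH, 33 of 41 genes were higher without overlap, with a median log2 fold change of 1.11. In complex II, the succinate dehydrogenase, it was 1 of 5 with a median of 0.38. For complex III with cytochrome c it was 6 of 10 with a median of 0.98, for complex IV, the cytochrome c oxidase, 14 of 18 with a median of 1.32, and for ATP synthase 19 of 20 with a median of 1.28. No member of any complex was lower without overlap.

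The complex I subunit gene ndufb3 had the smallest p-value of the group, at 836, 562 and 402 CPM at 14 dpi against 108 and 115 CPM at 5 dpi. Its log2 fold change was 2.39 (SE 0.48). A second complex I gene, NDUFA3, was at 694, 505 and 377 CPM at 14 dpi against 118 and 135 CPM at 5 dpi, with a log2 fold change of 2.02 (SE 0.46). Among cytochrome c oxidase genes, cox7a1, the subunit isoform of heart and muscle, was at 1167, 709 and 725 CPM at 14 dpi against 239 and 170 CPM at 5 dpi. Of the genes that belong to ATP synthase or bind it, atp5if1a, which encodes the inhibitory factor that stops the enzyme from running backwards, was at 652, 752 and 494 CPM at 14 dpi against 174 and 167 CPM at 5 dpi. The alpha subunit gene ATP5F1A was at 3959, 4355 and 2961 CPM at 14 dpi against 1481 and 1402 CPM at 5 dpi. These 5 genes were 2.61- to 5.38-fold higher at 14 dpi by their means.

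The mitochondrial genome encodes further subunits of the same complexes. All 13 of its protein-coding genes had a positive fold change (53% of all genes did). Without overlap, 11 were higher (15.3% of all genes), and the median log2 fold change was 0.74. MT-ND3 was at 453, 392 and 295 CPM at 14 dpi against 98.9 and 132 CPM at 5 dpi, and MT-CO2 at 11429, 10825 and 11435 CPM against 5761 and 7779 CPM. Cytosolic ribosomal protein genes were also listed after the data had been seen. Of 80 tested members, 77 had a positive fold change (53% of all genes did). Without overlap, 69 were higher (15.3% of all genes), and the median was 0.87. RPL37, of the large subunit, was at 239, 239 and 166 CPM at 14 dpi against 62.2 and 78.5 CPM at 5 dpi, and RPS28, of the small subunit, at 490, 535 and 355 CPM against 131 and 189 CPM.

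In sham hearts many genes of these 3 groups had the same day order. The respiratory list summed to 50481 to 73491 CPM in 14 dpi sham libraries against 26790 and 58330 CPM in 5 dpi sham libraries, and 37 of its 94 genes were higher without overlap there (7.68% of all genes). For the mitochondrial genome it was 13 of 13, with sums of 49176 to 77852 CPM at 14 dpi sham against 16620 and 17490 CPM at 5 dpi sham, and for the ribosomal list 49 of 81. Measured as cryoinjury minus sham, the median difference between days was 0.45 for the respiratory list, -1.30 for the mitochondrial genome and -0.24 for the ribosomal list on the log2 scale, against 0.19 for all genes.

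The place of these groups above all genes depended on replicate 4 at 5 dpi. The median of the respiratory list minus that of all genes was 1.04 with 5 libraries and 1.14 without 5 dpi replicate 1, but -0.32 without 5 dpi replicate 4. For the mitochondrial genome these values were 0.64, 0.21 and -0.32, and for the ribosomal list 0.76, 0.36 and -0.09. In the same order the respiratory list's own median was 1.14, 1.46 and 0.90, against 0.10, 0.32 and 1.22 for all genes. Its value above 0 without 5 dpi replicate 4 therefore does not set the list apart from other genes.

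**Figure D3:**
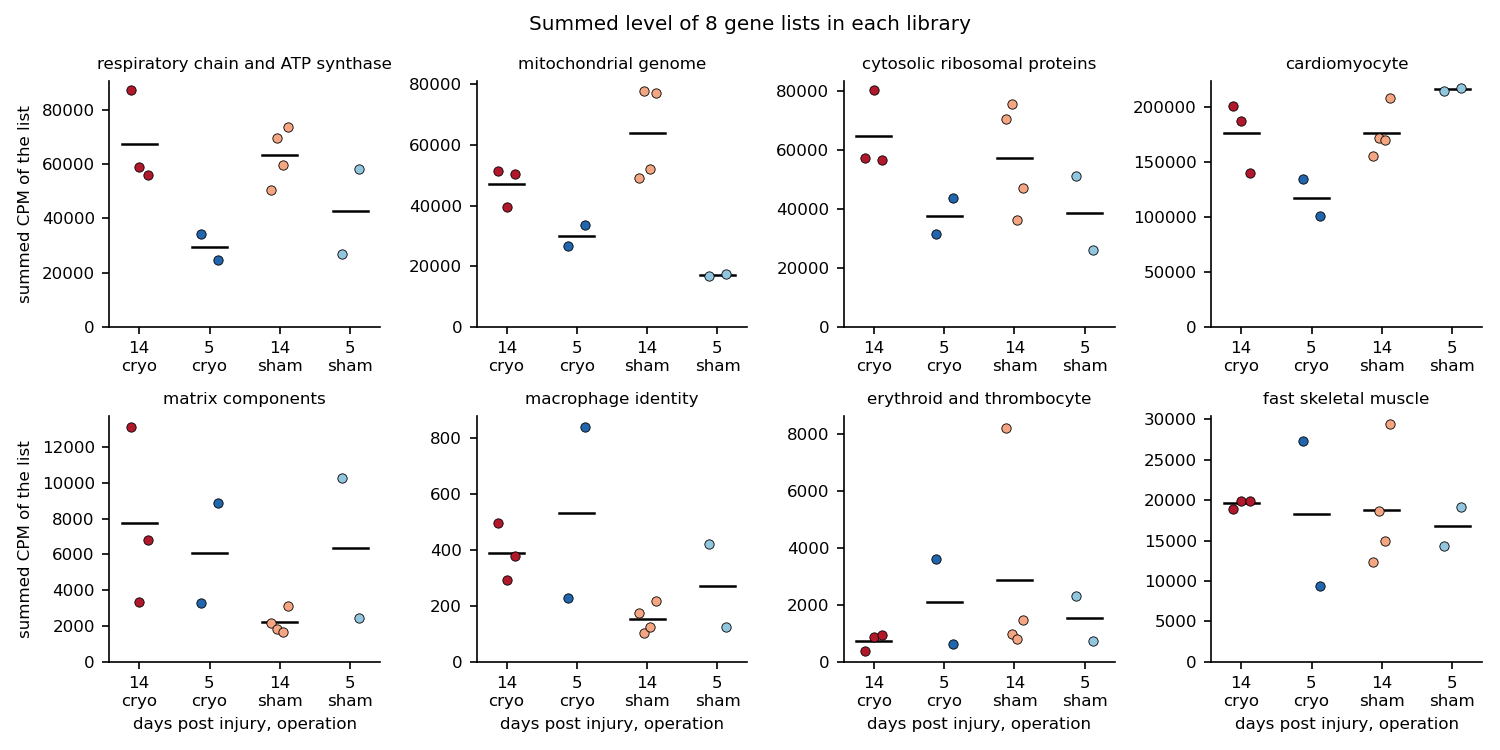
Summed TMM-normalised CPM (vertical axes, from 0) of 8 gene lists in each library of 14 dpi cryoinjury, 5 dpi cryoinjury, 14 dpi sham and 5 dpi sham, with the group mean as a bar. The respiratory sums of 14 dpi cryoinjury, 56126 to 87273 CPM, stood above both 5 dpi cryoinjury values, while matrix and macrophage sums of the 2 days overlapped.

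The glycolytic enzyme gene GAPDH was at 32841, 74202 and 67646 CPM at 14 dpi and at 15191 and 15259 CPM at 5 dpi, 3.82-fold higher by the means (log2 fold change 1.89, SE 0.48). SLC16A3 (ENSDARG00000045051), a lactate transporter, was at 150, 157 and 183 CPM at 14 dpi against 39.4 and 45 CPM at 5 dpi. In the fast skeletal muscle list 8 of 31 members had a positive fold change (53% of all genes did) and 23 a negative one. Of its members, the creatine kinase gene ckma was at 9735, 10795 and 9259 CPM against 5388 and 4092 CPM. The muscle enolase gene ENO3 was at 2441, 4653 and 3280 CPM against 2053 and 1216 CPM. In each of these 4 genes the days did not overlap.

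Genes of the cardiomyocyte list had no common order. Of 34 tested members, 18 had a positive fold change (53% of all genes did), with a median of 0.02. Without overlap, 9 were higher (15.3% of all genes) and 9 lower (9.9% of all genes). Relative to all genes the median was -0.08 with 5 libraries, 0.16 without 5 dpi replicate 1 and -1.25 without 5 dpi replicate 4. Several of the higher ones encode sarcomere proteins. MYBPC3, the myosin-binding protein that regulates contraction, was at 5680, 8194 and 4773 CPM at 14 dpi against 2565 and 1896 CPM at 5 dpi, with a log2 fold change of 1.43 (SE 0.42). The troponin T gene TNNT2 (ENSDARG00000020610) was at 15570, 11790 and 9538 CPM against 4994 and 4610 CPM, and the myosin light chain gene cmlc1 at 24417, 24987 and 19690 CPM against 10324 and 7340 CPM. The myosin heavy chain gene MYH7 was at 32752, 43436 and 25624 CPM against 18109 and 11824 CPM. Outside the list, FHOD3, a formin that organises sarcomeric actin, was at 58.4, 51.9 and 43.3 CPM at 14 dpi against 0 and 2 CPM at 5 dpi. The transcription factor NKX2-5, chosen after its values were seen, was at 203, 105 and 94.7 CPM against 51.5 and 58.6 CPM.

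The natriuretic peptide genes, markers of stressed or embryonic heart muscle, had the opposite order. nppa was at 298, 731 and 629 CPM at 14 dpi and at 1739 and 1307 CPM at 5 dpi, a log2 fold change of -1.51 (SE 0.45). nppb was at 32.3, 50.8 and 135 CPM at 14 dpi and at 219 and 257 CPM at 5 dpi. At 1 dpi after cryoinjury both had been higher still, nppa at 3404 and 7826 CPM and nppb at 1605 and 3055 CPM. In sham hearts the order of the days was reversed: nppa was at 1358 to 2056 CPM in the 4 libraries at 14 dpi and at 838 and 708 CPM in those at 5 dpi. Cryoinjury minus sham, the difference between days was -2.52 on the log2 scale for nppa (SE 0.59) and -3.43 for nppb (SE 0.80), with an adjusted p of 0.530 for each in edgeR's quasi-likelihood interaction test. TBX5, a transcription factor of heart muscle, was at 5.70, 24.1 and 17.8 CPM at 14 dpi against 83.6 and 53.8 CPM at 5 dpi, and, like nppb, was chosen after its values were seen.

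Several genes that act on the matrix of a fresh wound had lower values at 14 dpi. Of 48 tested matrix enzymes, crosslinkers and their inhibitors, 10 were lower without overlap (9.9% of all genes) and 5 higher (15.3% of all genes). DESeq2 called 4 lower (1.16% of all genes). The membrane metalloproteinase gene adam8a, known in mammals from leukocytes, was at 5.82, 0.32 and 1.76 CPM at 14 dpi and at 26.9 and 72.7 CPM at 5 dpi, a log2 fold change of -4.25 (SE 1.13). TIMP2 (ENSDARG00000075261), an inhibitor of metalloproteinases, was at 4.45, 1.82 and 10.3 CPM against 62.2 and 51.6 CPM, 10.3-fold lower by the means. The second TIMP2 gene (ENSDARG00000061226) overlapped between days, at 90.9, 40.5 and 124 CPM against 49.4 and 83.4 CPM.

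TIMP4 (ENSDARG00000100795), an inhibitor of the same family, had the opposite order. It was at 57.9, 49.9 and 178 CPM at 14 dpi and at 16.1 and 16.4 CPM at 5 dpi, 5.87-fold higher by the means (log2 fold change 2.51, SE 0.70). In sham hearts it was at 9.35 to 13.6 CPM at 14 dpi and at 0.48 and 3.47 CPM at 5 dpi, so the day order was the same there at a lower level. Genes for the modification of collagen chains included PLOD2, a lysyl hydroxylase, at 53.5, 14.2 and 12.7 CPM at 14 dpi against 65.1 and 109 CPM at 5 dpi, and the prolyl hydroxylase gene p4ha1a at 0, 0.54 and 0.51 CPM against 19.1 and 6.25 CPM, both chosen after their values were seen. The lysyl oxidase gene loxl2a overlapped, at 57.8, 28 and 31.3 CPM against 11 and 109 CPM. The median of the whole list, relative to all genes, was -0.55 with 5 libraries, -1.26 without 5 dpi replicate 1 and 0.91 without 5 dpi replicate 4. With at least 10 counts in every library it was 0.003 over 27 tested genes. Its direction thus rested on replicate 4 and on members with fewer than 10 counts in some library.

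Hearts at 1 dpi extend the comparison to an earlier day. The study names adam8a, hbegf and il11b, and also loxl2a, marco, myelin protein zero, a PDGF receptor and nrg2b, in these libraries, so the values of hbegfb, mpz, PDGFRL and the NRG2 genes, like those of the others, are not taken as independent evidence. hbegfb, an EGF receptor ligand, was at 821 and 440 CPM at 1 dpi, 50.1 and 81.5 CPM at 5 dpi, and 21, 5.01 and 5.21 CPM at 14 dpi, with a log2 fold change of -2.69 (SE 0.78) between the last pair of days. In 5 dpi sham hearts hbegfb was at 0 and 2.04 CPM, and in 14 dpi sham hearts at 1 to 11.102 CPM. adam8a was at 117 and 81.3 CPM at 1 dpi, 26.9 and 72.7 CPM at 5 dpi and 0.32 to 5.82 CPM at 14 dpi. For hbegfb and adam8a no library overlapped with one of a later day. The cytokine gene il11b, at 60.4 and 54.1 CPM at 1 dpi, was at 0.13 and 17.9 CPM at 5 dpi and at 0, 0 and 1.22 CPM at 14 dpi, with an overlap between the later days.

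**Figure D4:**
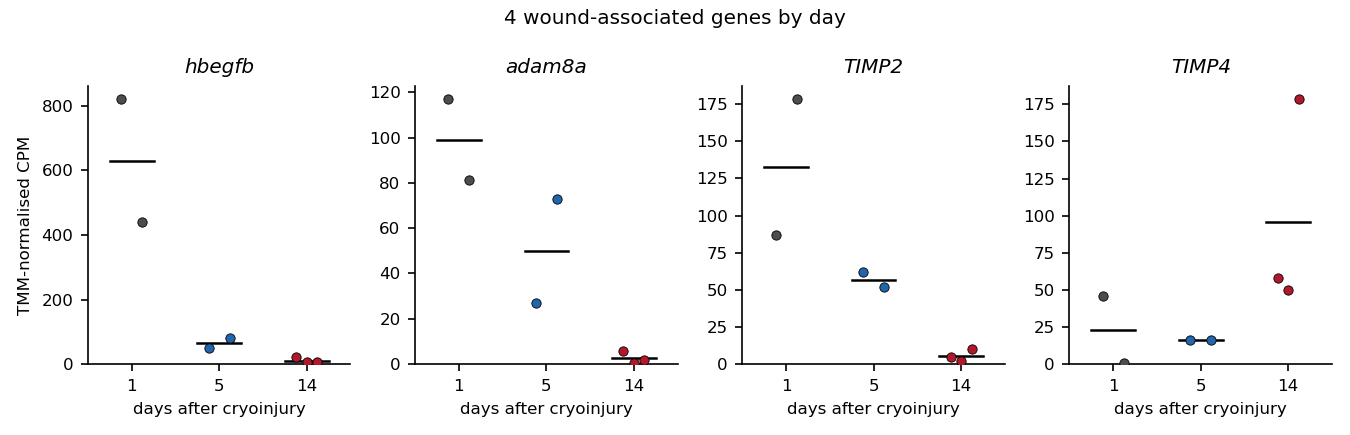
TMM-normalised CPM (vertical axes, from 0) of hbegfb, adam8a, TIMP2 (ENSDARG00000075261) and TIMP4 (ENSDARG00000100795) at 1, 5 and 14 days after cryoinjury, 1 point per heart with the group mean as a bar. The first 3 genes were lowest at 14 dpi, with adam8a at 0.32 to 5.82 CPM, while TIMP4 was highest there, at 49.9 to 178 CPM.

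The collagens and other structural matrix components overlapped between days for the most part. Of 56 tested members, 36 had a positive fold change (53% of all genes did), and the median was 0.40. Without overlap, 6 were higher (10.7%) and 2 lower (3.57%), both smaller shares than among all genes (15.3% and 9.9%). The list summed to 13142, 3317 and 6794 CPM at 14 dpi and to 3283 and 8860 CPM at 5 dpi, and the days overlapped. COL1A2 was at 2159, 420 and 1204 CPM at 14 dpi and at 324 and 1088 CPM at 5 dpi. COL1A1 was at 1565, 426 and 1133 CPM against 477 and 1400 CPM, and the basement membrane collagen gene COL4A1, chosen after its values were seen, at 863, 229 and 312 CPM against 153 and 265 CPM. Within each day the heart highest in one of these 3 collagens was highest in the others. The study itself follows col4a1, by in situ staining at 5 dpi after cryoinjury and by tagging and deletion in macrophages. Values of COL4A1 here are therefore not taken as independent evidence. The laminin gene LAMB1 (ENSDARG00000101209) did not overlap, at 185, 31.8 and 31 CPM at 14 dpi against 19.8 and 14.5 CPM at 5 dpi, nor did the small proteoglycan gene BGN, at 21.1, 18.4 and 6.85 CPM against 0 and 1.11 CPM. FN1 (ENSDARG00000006526), the fibronectin of provisional matrix, chosen after its values were seen, was at 372, 94.7 and 500 CPM against 674 and 686 CPM.

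Cryoinjury minus sham, 41 of its 57 genes had a positive difference between days (53.7% of all genes), 14 at an unadjusted p under 0.05 (5.06% of all genes), and the median was 1.50 on the log2 scale against 0.19. In sham hearts the list summed to 1677 to 3123 CPM in the 4 sham libraries at 14 dpi and to 10264 and 2438 CPM in those at 5 dpi, and 10 genes were lower without overlap at 14 dpi sham (8.15% of all genes). For COL4A1 the difference was 2.61 (SE 0.81) with an adjusted p of 0.648, and for col5a3a, a minor fibrillar collagen also chosen after its values were seen, 5.78 (SE 1.32) with an adjusted p of 0.530 in edgeR's quasi-likelihood interaction test. The 5 dpi sham replicate 3 held 238 CPM of col5a3a, against 23.2 CPM in replicate 2.

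Most inflammatory mediators had lower fitted values at 14 dpi. Of 26 tested members, 5 had a positive fold change (53% of all genes did) and 21 a negative one, with a median of -1.05. Without overlap, 7 were lower (9.9% of all genes) and 2 higher (15.3% of all genes). nfkbiaa, which holds NF-kB in the cytoplasm, was at 40.3, 61.7 and 62.6 CPM at 14 dpi and at 111 and 139 CPM at 5 dpi, and TNFAIP3, a ubiquitin-editing enzyme that ends NF-kB signalling, at 6.33, 8.19 and 14.7 CPM against 29.9 and 36.6 CPM. ACOD1, the enzyme that makes itaconate in activated macrophages of mammals, was at 8.79, 3.29 and 2.32 CPM against 23.7 and 14.9 CPM. HIF1A, the oxygen-sensitive transcription factor, had the opposite order, at 181, 130 and 153 CPM against 83.6 and 90.3 CPM. The other positive log2 fold changes were 6.40 for nos2a, 6.15 for TLR2, 0.99 for TRIL and 0.28 for irf1b. The sizes of the values for nos2a and TLR2 were not set against the floor. Of the list's 41 entries, 8 had no count in either 5 dpi library. The entry named NOS2 had the opposite sign to nos2a, with a log2 fold change of -1.33. TLR2, irf1b and NOS2 were chosen after their values were seen, and the study names nos2a and tril. Of the cytokine genes that the count filter left out of the test, il1b reached 0.26 CPM at most. Also left out, tnfa and il12a were detected in only 1 of the 5 libraries, 5 dpi replicate 4, at 0.94 and 7.61 CPM. Relative to all genes the list's median was -1.16, -1.53 without 5 dpi replicate 1 and -0.14 without 5 dpi replicate 4. Measured against sham, the lower values were not seen: cryoinjury minus sham, the median difference between days was 0.13 on the log2 scale, against 0.19 for all genes. It was positive for 18 of 31 genes (53.7% of all genes).

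The receptor gene tnfrsf9a, a member of the TNF receptor family known from activated immune cells, was at 11.6, 14.5 and 10.2 CPM at 14 dpi and at 45.7 and 185 CPM at 5 dpi, a log2 fold change of -3.28 (SE 0.64) that DESeq2 called. Interferon response genes were lower by sign in 14 of 19 tested members and higher in 5 (53% of all genes), with a median of -1.07. Without overlap, 4 were lower (9.9% of all genes) and 2 higher (15.3% of all genes). Of the positive members, usp18, chosen after its values were seen, had a log2 fold change of 4.19. stat2, which carries the type I interferon signal to the nucleus, was at 43.9, 52.9 and 20 CPM at 14 dpi against 119 and 110 CPM at 5 dpi. The guanylate-binding protein gene gbp2 was at 0, 0.07 and 0.92 CPM against 29.5 and 9.36 CPM, and the RNA sensor gene IFIH1 at 3.59, 10.5 and 8.55 CPM against 30.4 and 19.3 CPM. Here the median relative to all genes lay between -1.50 and -0.97 under the alternatives tried.

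Macrophage genes had no common order. Of 27 tested members of the identity list, 9 had a positive fold change (53% of all genes did), with a median of -0.52. Without overlap, 1 was higher (15.3% of all genes) and 3 lower (9.9% of all genes). Relative to all genes the median was -0.62, -1.32 without 5 dpi replicate 1 and 0.51 without 5 dpi replicate 4. il34, a ligand of the macrophage growth factor receptor, was at 1.21, 2.68 and 4.53 CPM at 14 dpi against 25.3 and 18 CPM at 5 dpi, and DESeq2 called it. The transcription factor gene spi1a was at 7.54, 4.65 and 1.91 CPM against 8.74 and 33.1 CPM. The lysosomal marker cd68 overlapped, at 4.41, 12.1 and 8.40 CPM against 8.55 and 82.8 CPM, as did the scavenger receptor marco, at 72.1, 85 and 29.6 CPM against 57.3 and 44.2 CPM. The leukocyte phosphatase gene ptprc, chosen after its values were seen, was near 20 CPM in all 3 hearts at 14 dpi (19.1, 20 and 20 CPM) and at 7.46 and 63.2 CPM in those at 5 dpi.

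Of 34 genes for complement C1q, lysosome and lipid handling, 3 were higher (15.3% of all genes) and 6 lower (9.9% of all genes) without overlap. A positive fold change was estimated for 13 (53% of all genes) and a negative one for 21, with a median of -0.30. The positive ones included MRC1 at 8.84 and CD36 at 8.09 on the log2 scale, both chosen after their values were seen. The sizes of these 2 values were not set against the floor. Of the list's 37 entries, 5 had no count in either 5 dpi library. CTSK, a collagen-degrading cathepsin, was at 8.79, 15.3 and 20.7 CPM at 14 dpi and at 54.8 and 76.1 CPM at 5 dpi, with a log2 fold change of -2.17 (SE 0.63). The scavenger receptor gene stab1 was at 1.87, 10.8 and 10.1 CPM against 39.4 and 37 CPM. PSAP, the precursor of lysosomal saposins, was the other way round, at 185, 160 and 202 CPM against 99.5 and 108 CPM. The complement genes overlapped, both chosen after their values were seen, c1qb at 72.8, 30.8 and 35.6 CPM against 10.8 and 103 CPM and c1qc at 97.9, 22 and 45.3 CPM against 63.5 and 87.8 CPM. The antigen presentation list was matched for only 77.8% of its symbols. Of its 11 tested genes, 3 were higher (15.3% of all genes) and 3 lower (9.9% of all genes) without overlap. A positive fold change was estimated for 5 (53% of all genes) and a negative one for 6. DESeq2 called 1 higher (1.97% of all genes) and 1 lower (1.16% of all genes). On the log2 scale mhc1uba was at 5.16, ciita at 2.95, cd40 at 2.12 and tap2a at -10.3, all chosen after their values were seen. Of the 11 tested genes, mhc2dab, a class II gene, was at 3.75, 6.15 and 10.1 CPM at 14 dpi against 14.7 and 61.1 CPM at 5 dpi. The invariant chain gene cd74a overlapped, at 778, 317 and 321 CPM against 153 and 669 CPM.

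Growth factors and receptors were mixed, with a median of -0.22. Among 38 tested, 4 were higher (15.3% of all genes) and 9 lower (9.9% of all genes) without overlap. Both genes named NRG2, ligands of ErbB receptors, had lower values in all 3 hearts at 14 dpi. NRG2 (ENSDARG00000077818) was at 6.13, 32.4 and 28.2 CPM at 14 dpi against 74.3 and 58 CPM at 5 dpi, and NRG2 (ENSDARG00000086585) at 0, 1.25 and 1.49 CPM against 29.2 and 14.1 CPM. VEGFA (ENSDARG00000034700), the vascular growth factor, was at 74.6, 197 and 118 CPM against 59.3 and 44.6 CPM, a log2 fold change of 1.27. The second VEGFA gene (ENSDARG00000103542), chosen after its values were seen, had the opposite sign, with a log2 fold change of -1.53. PDGFRL was at 123, 96.4 and 97 CPM against 66.6 and 60.9 CPM, and in sham hearts had the same day order, at 31.2 to 162 CPM against 6.21 and 25.7 CPM. The adrenomedullin gene ADM (ENSDARG00000069027), a vasodilator peptide chosen after its values were seen, was at 0, 0.21 and 0.45 CPM at 14 dpi against 19.6 and 19.8 CPM at 5 dpi.

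A few nerve sheath genes had counts at 14 dpi and were near the floor at 5 dpi. plp1b, a myelin membrane protein, was at 18.8, 8.51 and 13.9 CPM at 14 dpi and at 0 and 0.21 CPM at 5 dpi, and DESeq2 called it. mpz, the main protein of peripheral myelin, was at 0.47, 18.2 and 19.3 CPM against 0 and 0.17 CPM. The adhesion gene ncam3 was at 3.67, 3.76 and 22.8 CPM at 14 dpi and at 0 in both hearts at 5 dpi, a mean at least 63.2-fold higher when the 5 dpi group is set to its mean floor of 3 counts per library. Of 15 tested genes of the list, 4 were higher (15.3% of all genes) and 1 lower (9.9% of all genes) without overlap. No count was found in either 5 dpi cryoinjury library for 11 of its 30 entries. The list summed to 161, 90.0 and 170 CPM at 14 dpi after cryoinjury and to 49.5 and 110 CPM at 5 dpi, and the days overlapped. In sham hearts it summed to 55.7 to 70.2 CPM at 14 dpi, against 88.0 CPM in replicate 2 and 838 CPM in replicate 3 at 5 dpi. The marker SYT1, of neuronal vesicles, overlapped at 89.9, 25.4 and 20.9 CPM against 8.04 and 58.2 CPM.

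Cell cycle genes had lower values at 14 dpi in 9 of 39 tested members without overlap (9.9% of all genes). Higher values without overlap were found in 0 (15.3% of all genes), and the median was -0.60. A positive fold change was estimated for 13 of the 39 (53% of all genes) and a negative one for 26. The mitotic kinase gene CDK1 was at 8.83, 1.32 and 0 CPM at 14 dpi against 17.5 and 22.4 CPM at 5 dpi. RRM2 (ENSDARG00000020711), which supplies nucleotides for replication, was at 11.09, 1.22 and 0.03 CPM against 21.6 and 19.6 CPM, and the centromere gene CENPF at 5.86, 1.97 and 0.33 CPM against 11.2 and 12.3 CPM. Both were chosen after their values were seen. The proliferation marker mki67, chosen in the same way, overlapped, at 10.8, 3.04 and 0.27 CPM against 6.32 and 17.2 CPM. Of the positive members, RRM2 (ENSDARG00000078069) had a log2 fold change of 2.26, CCNA2 one of 5.08 and aurka one of 6.46. They too were chosen after their values were seen, and none was higher without overlap. In sham hearts 17 of 45 cell cycle genes were lower at 14 dpi without overlap (8.15% of all genes), and cryoinjury minus sham the median difference was 0.82 on the log2 scale.

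**Figure D5:**
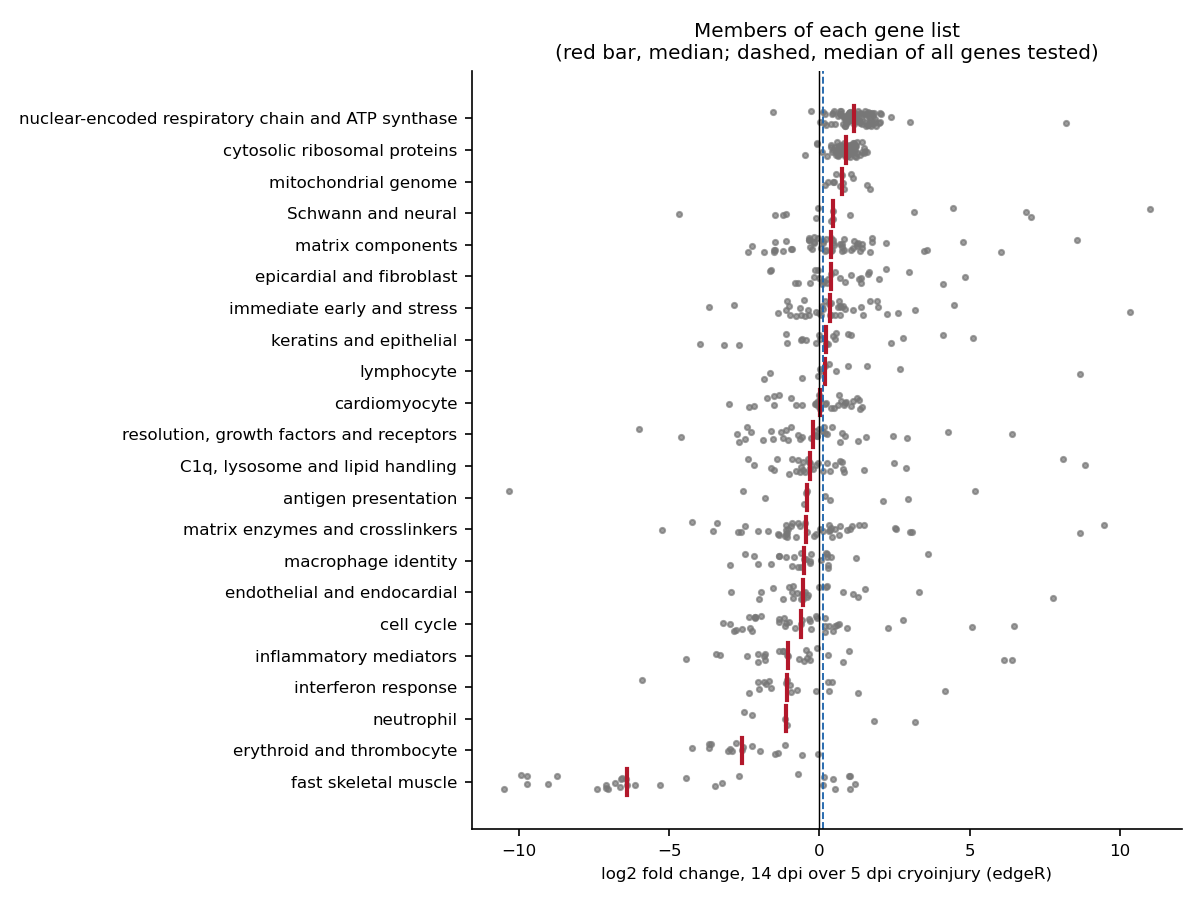
Log2 fold change, 14 dpi over 5 dpi cryoinjury (horizontal axis, edgeR), of each tested member of 22 gene lists, with the list median as a red bar and the median of all genes, 0.10, as a dashed line. The respiratory list lay furthest to the right by its median, 1.14, and the fast skeletal muscle list furthest to the left, at -6.39.

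Markers of other tissues were unequal between the hearts at 5 dpi. Of 31 tested fast skeletal muscle genes, 8 had a positive fold change (53% of all genes did) and 23 a negative one. DESeq2 called 12 lower (1.16% of all genes), and the list's median was -6.39. pvalb3, a parvalbumin of fast muscle, was at 10.2, 9.44 and 9.42 CPM at 14 dpi and at 1277 and 17.9 CPM at 5 dpi, and MYL1 (ENSDARG00000017441), a fast myosin light chain, at 0.08, 5.40 and 5.51 CPM against 943 and 9.74 CPM. Without 5 dpi replicate 1 the list's median relative to all genes turned to 1.07, against -6.49 with it. In the erythroid and thrombocyte list 0 of 17 tested genes had a positive fold change (53% of all genes did), and the median was -2.58. SLC4A1 (ENSDARG00000012881), the anion exchanger of red cells, was at 5.12, 5.58 and 6.94 CPM at 14 dpi against 184 and 29.7 CPM at 5 dpi, and the red cell transcription factor gene klf1 at 4.22, 2 and 6.2 CPM against 92 and 9.15 CPM. Without 5 dpi replicate 1 that median, relative to all genes, was -0.53, against -2.69 with it.

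Endothelial genes were lower without overlap in 7 of 26 tested members (9.9% of all genes) and higher in 3 (15.3% of all genes), with a median of -0.56. vwf, which binds platelets to damaged vessels, was at 17.8, 154 and 56 CPM at 14 dpi against 194 and 375 CPM at 5 dpi, and NOTCH1 (ENSDARG00000052094) at 20.4, 59.5 and 23.6 CPM against 85.6 and 109 CPM. Epicardial and fibroblast genes were higher without overlap in 6 of 29 (15.3% of all genes) and lower in 3 (9.9% of all genes), with a median of 0.40. The chemokine gene cxcl12b was at 56.4, 19.6 and 75.4 CPM at 14 dpi against 2.62 and 18.9 CPM at 5 dpi, and its relative cxcl12a at 91.6, 67 and 98 CPM against 13.3 and 50.9 CPM. ALDH1A2, which makes retinoic acid in activated epicardium and endocardium, was at 33.9, 38.9 and 98.3 CPM against 116 and 233 CPM, after 221 and 357 CPM at 1 dpi. Immediate early and stress genes had a median of 0.34, with 2 of 43 higher (15.3% of all genes) and 2 lower (9.9% of all genes) without overlap. Keratins and epithelial genes had a median of 0.21 over 23 tested, and lymphocyte genes one of 0.18 over 13 tested. Of 6 tested neutrophil genes, 2 were lower without overlap (9.9% of all genes). One of these, srgn, the core of granule proteoglycan, was at 74.2, 62.8 and 103 CPM at 14 dpi against 154 and 187 CPM at 5 dpi. Relative to all genes, some list medians also changed sign without 1 library: without 5 dpi replicate 1 the matrix components were at -0.37, the epicardial and fibroblast genes at -0.19 and the immediate early and stress genes at -0.31, against 0.29, 0.29 and 0.23 with all 5 libraries. Without 5 dpi replicate 4 the C1q, lysosome and lipid list was at 0.31, against -0.41, and the keratins at -0.85, against 0.10. Other medians kept their sign but moved: with 5 libraries, without 5 dpi replicate 1 and without 5 dpi replicate 4 they were 0.34, 3.18 and 4.55 for the Schwann and neural genes, -0.32, -0.999 and -0.90 for growth factors and receptors, -0.66, -0.94 and -1.53 for the endothelial genes. In the same order they were -0.71, -1.11 and -1.28 for the cell cycle genes, -0.52, -1.02 and -1.01 for antigen presentation, and -1.21, -0.73 and -2.23 for the neutrophil genes. The lymphocyte median was at 0.07, -0.08 and 0.77.

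Some of the genes with the smallest p-values belonged to none of the lists. LPP, a protein of focal adhesions, was at 30.2, 20.2 and 33.1 CPM at 14 dpi and at 110 and 194 CPM at 5 dpi, a log2 fold change of -2.48 (SE 0.51), and DESeq2 called it. PHF13, a reader of histone methylation, was at 0.08, 0.36 and 0.03 CPM against 22.3 and 25.5 CPM. The amino acid oxidase gene DAO (ENSDARG00000035603) had no count in any of the 3 hearts at 14 dpi and was at 18.1 and 17.4 CPM at 5 dpi, at least 169-fold lower at 14 dpi against the mean floor of 3 counts. LSS, which closes the sterol ring, was at 0, 0 and 0.03 CPM against 27.7 and 3.40 CPM. NIBAN2 (ENSDARG00000062970) was at 2.97, 6.15 and 2.56 CPM against 86.2 and 23.4 CPM, and ZNF292 at 8.94, 13.6 and 20.7 CPM against 71 and 96.4 CPM. In the other direction, DHODH, the mitochondrial enzyme of pyrimidine synthesis, was at 22.3, 5.15 and 34.2 CPM at 14 dpi against 0 and 0.09 CPM at 5 dpi. The uncharacterised genes si:ch73-141c7.1, at 16.2, 25.5 and 64 CPM against 0.06 and 0.64 CPM, and zgc:113518, at 29.7, 22.5 and 3.58 CPM against 0 in both hearts, had the same order. The kinase gene map2k4b, chosen after its values were seen, was at 27.4, 12 and 13.6 CPM against 0.26 and 0.30 CPM. Zeros of this kind also occurred within a group: of genes with 100 or more counts in one heart, 0.984% to 6.96% were at 0 in another heart at 14 dpi, against 2.99% and 12.2% at 5 dpi.

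The sham hearts allow the question whether the difference between days after cryoinjury exceeded that without injury. Of the 4 sham libraries at 14 dpi, 3 are labelled round 1 and 1 round 2, while all 14 dpi cryoinjury libraries are labelled round 2. In edgeR's quasi-likelihood interaction test over 11 libraries, 0 of 17979 genes were called (0%), with a smallest adjusted p of 0.530. At an unadjusted p under 0.05, 909 had a positive difference (5.06%) and 428 a negative one (2.38%), and DESeq2 called 170 and 77. With the round 2 sham library alone at 14 dpi, edgeR called 4 and 13, and the median difference of all genes was 0.86, against 0.19. Among the genes named here, FHOD3 had a difference of 6.73 (SE 1.47) on the log2 scale, and in sham hearts it was at 13.9 to 28.7 CPM at 14 dpi and at 63.7 and 25.7 CPM at 5 dpi. For TNNT2 (ENSDARG00000020610) it was 1.42 (SE 0.49) and for actc1c 3.33 (SE 0.73). For TIMP4 (ENSDARG00000100795) it was -0.06 (SE 1.03) and for cox7a1 0.19 (SE 0.74), both smaller than their errors. None of these passed the adjusted threshold.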

How the data were processed

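Per the labels and the study's methods, nuclei biotinylated in mpeg1-expressing cells were pulled down from single hearts, and amplified cDNA was sequenced. The authors deposited 1 table of counts per gene, raw and not normalised, for 31953 Ensembl genes. The submitters' processing notes name STAR 2.4.2a, featureCounts, DESeq2 and danRer10. Of its 23 columns, 2 could be tied to no label and were left aside, and 1 gene with missing values was left out. Symbols were found for 26287 identifiers, of which 3909 share one.

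Counts were filtered with filterByExpr, TMM-normalised and tested with edgeR 4.0.16's quasi-likelihood test in R 4.3.3, Benjamini-Hochberg adjusted over all genes tested, at 0.05. The direct comparison used the 5 cryoinjury libraries, and the interaction 11 libraries with sham. Levels are CPM with TMM factors over all 21 libraries, and 3 counts was taken as the floor, which covers counting error only. Total counts per library ranged between 13014699 and 34986363 in the 5 libraries. Alternatives were DESeq2 1.42.0, its size factors, other count filters, 1 fit of all libraries, robust dispersion, a replicate block for the interaction, and leaving out each library. Named genes were MPEG1, the 12 of smallest p without overlap in each direction that had a symbol and more than 3 counts in every library of the higher group, the 4 of smallest p and 3 of highest level in each list, and genes the study names. Others are marked as chosen after their values were seen. Members and lists were chosen with earlier results of these data known. The fits were also run on simulated counts, with a pass condition set only for edgeR at a low dispersion and larger fold changes. Recovery at the dispersion estimated from these libraries had no pass condition and is not given. Not every gene that these rules name is given in the text: some are covered by their list's counts alone, and 1 is not reported here.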

Additional observations from a re-analysis of the deposited data

Results flagged for a closer look

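In the 4 sham libraries at 14 dpi, 1 library lay far from the other 3 in 4 of 22 list sums and 10 of 82 genes. Chance alone gives some such flags, since the criterion is a 95% limit. Round 1 replicate 1 stood out for the summed interferon response genes (692 CPM), the summed erythroid and thrombocyte genes (8211 CPM), SLC4A1 (ENSDARG00000012881) at 207 CPM, klf1 at 103 CPM and hbegfb at 11.102 CPM. Round 1 replicate 2 stood out for NRG2 (ENSDARG00000077818) (39.8 CPM). Round 1 replicate 3 stood out for the summed neutrophil genes (149 CPM), adam8a (1.71 CPM), gbp2 (5.57 CPM) and ncam3 (3.07 CPM). Round 2 replicate 3 stood out for the summed immediate early and stress genes (6269 CPM), TNNT2 (ENSDARG00000020610) at 11228 CPM, TIMP2 (ENSDARG00000075261) at 8.05 CPM and p4ha1a at 3.18 CPM.

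For 6 results the order of the days after cryoinjury was the opposite of that in sham hearts, with no overlap in either. The summed neutrophil genes were at 0.429 times their 5 dpi mean at 14 dpi after cryoinjury and the summed cardiomyocyte genes at 1.50 times, and for these sums the difference from sham was not tested. The log2 fold changes after cryoinjury were -1.51 for nppa, -1.75 for nppb, -1.13 for srgn and 0.79 for HIF1A. Cryoinjury minus sham, the difference was -2.52 for nppa, -3.43 for nppb, -1.64 for srgn and 1.77 for HIF1A, and none passed the adjusted threshold of edgeR's quasi-likelihood interaction test.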

How the results depend on the processing

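The count of called genes depended on the method. For 14 over 5 dpi after cryoinjury it was 0 higher and 0 lower in edgeR, 332 and 196 with DESeq2, 30 and 84 without a filter beyond 1 count, and 1 and 0 with all 21 libraries in 1 fit. With size factors, with at least 10 counts in every library and with robust dispersion it was 0 in both directions. Leaving out 1 library gave 0 to 8 higher and 0 to 18 lower, with the highest counts, 8 and 18, without 5 dpi cryoinjury replicate 4. For cryoinjury minus sham the counts were 0 and 0 in edgeR, 170 and 77 with DESeq2, 67 and 51 without a filter, and 4 and 13 with 14 dpi sham of round 2 only. Leaving out 1 library gave 0 to 41 with a positive and 0 to 110 with a negative difference, with 41 and 10 without 5 dpi cryoinjury replicate 4 and 41 and 110 without 5 dpi sham replicate 2. The causes were not tested. Of 82 genes followed, all 82 kept the sign of their fold change in the alternatives run, and 43 were called in at least 1. Many of the 82 were chosen from these same libraries, for small p-values or after their values were seen. Some genes named above with overlapping days, such as COL1A2 and marco, were not among them. A kept sign was therefore likely from the start and is not independent support. No paired analysis was possible. Per the study's methods each library came from 1 heart, so the hearts of the 14 and 5 dpi cryoinjury groups are separate animals. The groups share only replicate number 1. In the interaction, the replicate block gave 17 genes with a positive and 9 with a negative difference, although the numbers are not known to pair animals.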
